A study of Mus musculus with 8 samples.

Results

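Thrombospondins and glypicans are proteins that astrocytes release or carry on their surface and that act on synapses. The 10 genes considered here are the thrombospondins Thbs1 to Thbs4 and the glypicans Gpc1 to Gpc6, taken by gene symbol from a table of 24047 gene rows. All 10 are present in the counts and in the TPM values (a level scaled for transcript length, per 1000000 transcripts). RNA came from tdTomato-positive cells sorted from the somatosensory cortex of mice aged 23 to 25 days (P23-P25), in 4 Ptch1cKO libraries (Glast-CreERT2; Ptch1fl/fl; Ai14) and 4 WT libraries (Glast-CreERT2; Ai14). Both groups carry the tamoxifen-inducible Cre driven by the Glast promoter, which is active in astrocytes, and the Ai14 reporter, which turns on tdTomato where Cre has acted. Both also received tamoxifen on 3 days, from day 12 to day 14. The groups differ by the floxed Ptch1 alleles. Ptch1 encodes the receptor that holds the Hedgehog pathway off, and the pathway is switched on in its absence. Whether libraries came from separate animals is not in the labels, so the p-values below reflect variation among these libraries, which may be technical.

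Thrombospondins are large secreted multimers. In the developing brain, astrocyte thrombospondins promote the formation of synapses that are structurally normal but lack active AMPA-type glutamate receptors, and Cacna2d1, a calcium channel subunit and the target of gabapentin, is their neuronal receptor for this effect. Glypicans are heparan sulfate proteoglycans held to the membrane by a lipid anchor and released from it by cleavage. Gpc4 and Gpc6 from astrocytes bring AMPA receptors to the surface of neurons and so raise synaptic activity. Glypicans also bind Hedgehog ligands, and in mouse embryos Gpc3 lowers Hedgehog signalling.

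Libraries held between 4061274 and 7206462 counts. Ptch1 itself averaged 223 ± 40.7 CPM (counts per 1000000, scaled with TMM factors) in Ptch1cKO and 356 ± 122 CPM in WT (SD, n = 4 each), with a log2 fold change of -0.67 (SE 0.22) and an edgeR adjusted p of 0.350. The groups overlapped, since WT library 2, at 226 CPM, lay below Ptch1cKO libraries 2 and 4, at 248 and 257 CPM. Xist, the transcript of the inactive X, had 1148 and 612 counts in WT libraries 2 and 3 and at most 4 counts in the other 6, so these 2 WT libraries are of the female pattern and all Ptch1cKO libraries of the male pattern. Gpc3 and Gpc4 are X-linked. The astrocyte markers Aldh1l1 and Aqp4 averaged 133 ± 27.2 and 107 ± 25.2 CPM in Ptch1cKO and 127 ± 30.8 and 92.7 ± 9.47 CPM in WT (SD, n = 4 each), and all 10 listed astrocyte markers were detected. Oligodendrocyte markers, summed over 8 genes, reached 17405 to 23008 CPM in Ptch1cKO and 13710 to 26541 CPM in WT, beside astrocyte marker sums over 10 genes of 15709 to 32180 CPM and 20495 to 30314 CPM. RNA of other cell types was thus present, and in such bulk samples fewer cells of a type cannot be told apart from less RNA per cell.

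Gpc5 was the most abundant of the 10 genes in every library. In mice it is made by mature astrocytes. The gene spans 1432965 bases of chromosome 14 (chr14:115092215-116525179 of mm10, plus strand). Gpc5 had 36.2, 83.2, 34.0 and 64.0 TPM in Ptch1cKO libraries 1 to 4, against 33.0, 26.3, 68.8 and 44.6 TPM in WT libraries 1 to 4. The ranges overlapped, with Ptch1cKO libraries 2 and 4 and WT library 3 high and WT library 2 lowest. Its means were 54.3 ± 23.5 TPM in Ptch1cKO and 43.2 ± 18.7 TPM in WT (SD, n = 4 each). Gpc5 made up 68.7 ± 6.56% of the summed glypican TPM in Ptch1cKO and 63.5 ± 2.95% in WT (SD, n = 4 each), and never under 59.4% in a library. Even its lowest library, at 26.3 TPM, lay above the highest library of any other member, which was 19.4 TPM for Gpc4 in WT library 3.

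Gpc4, Thbs3, Gpc6 and Gpc1 followed, with means over the 8 libraries of 8.99, 8.92, 7.004 and 5.83 TPM. The order among these 4 was not resolved, since the ranges of neighbours overlapped and Gpc4 exceeded Thbs3 in only 3 of 8 libraries. Thbs4 averaged 4.09 TPM, but its median was 1.38 TPM, with 13.3 TPM in Ptch1cKO library 4 and 11.6 TPM in WT library 2. The means of the remaining genes lay lower, at 1.19 TPM for Gpc2, 0.917 TPM for Gpc3, 0.766 TPM for Thbs2 and 0.664 TPM for Thbs1. Neighbours in this lower part of the order overlapped as well. Since coding sequence was captured with probes, levels of different genes also depend on capture.

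**Figure D1:**
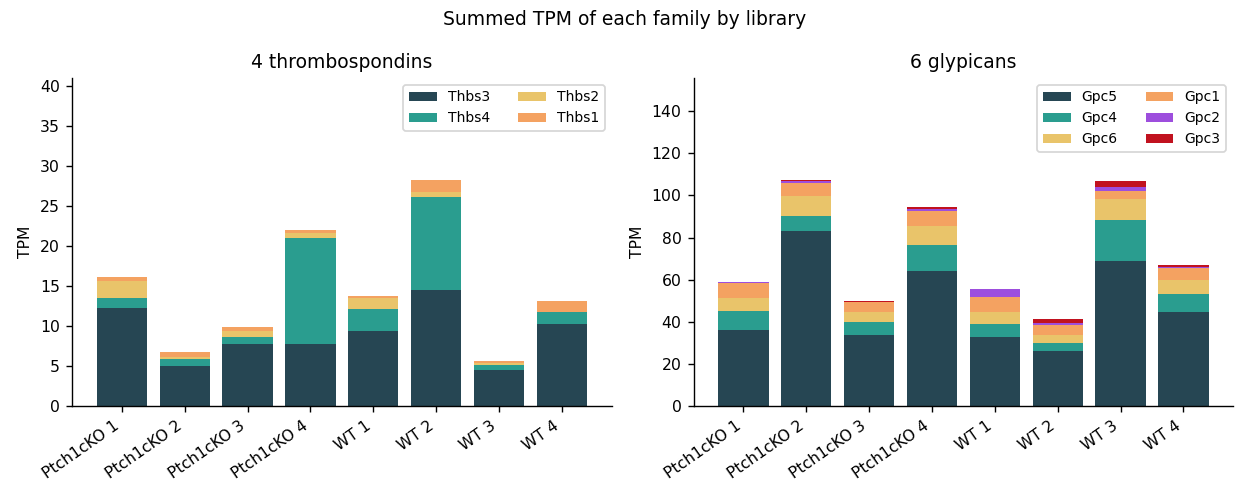
Stacked bars give the summed TPM of the 4 thrombospondins and of the 6 glypicans in each library, with Ptch1cKO libraries left of WT libraries. Gpc5 fills at least 59.4% of every glypican bar, and Thbs3 is the largest part of every thrombospondin bar except that of Ptch1cKO library 4, where Thbs4 made up 60.2%.

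Thbs3 had the most TPM of the thrombospondins in every library except Ptch1cKO 4, where it held 35.2% of their sum and Thbs4 60.2%. Known best from skeletal tissue, Thbs3 is one of the thrombospondins that form pentamers. It lies on chromosome 3 (chr3:89215180-89226837, plus strand). Thbs3 had 12.2, 5.02, 7.78 and 7.76 TPM in Ptch1cKO libraries 1 to 4, against 9.42, 14.5, 4.49 and 10.2 TPM in WT libraries 1 to 4. WT library 2 was highest and WT library 3 lowest, so the WT range enclosed the Ptch1cKO range. Its share of the summed thrombospondin TPM was 65.9 ± 20.5% in Ptch1cKO and 69.5 ± 13.1% in WT (SD, n = 4 each). An exon of Thbs3 overlaps Mtx1 on the opposite strand, and because the sources used here do not give the strand setting of the counting, reads of the overlap cannot be told apart.

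The sequences upstream of the 2 genes that lead their families, Gpc5 and Thbs3, are shown because the study acts on a pathway that ends in Gli transcription factors. Each run is the 250 bases before the RefSeq start on GRCm38.p6, from 5′ to 3′ on the gene's own strand, with the GC box (GGGCGG on either strand) in capitals. The Gpc5 window is chr14:115091965-115092214 and the Thbs3 window chr3:89214930-89215179.
Gpc5: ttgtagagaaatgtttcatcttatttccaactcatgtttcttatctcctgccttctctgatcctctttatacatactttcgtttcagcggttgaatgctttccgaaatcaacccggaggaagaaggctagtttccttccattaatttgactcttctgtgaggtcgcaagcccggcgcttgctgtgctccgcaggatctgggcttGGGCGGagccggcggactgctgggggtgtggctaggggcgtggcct
Thbs3: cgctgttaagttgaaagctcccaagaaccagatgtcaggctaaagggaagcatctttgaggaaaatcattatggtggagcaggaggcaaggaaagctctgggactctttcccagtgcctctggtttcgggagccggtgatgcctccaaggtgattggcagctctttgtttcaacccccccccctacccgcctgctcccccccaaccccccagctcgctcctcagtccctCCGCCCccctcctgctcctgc
Of the 10 members, 7 matched a promoter in the RefSeq table, and the Gli consensus GACCACCCA was found on neither strand in any of these 7 windows. The same letters occur in 0.225% of all 32851 windows of this length. A GC box was present in 6 of the 7 windows, Thbs2 being the exception, against 32.7% of all windows. G and C made up 51.2% (Gpc5) to 71.6% (Gpc3) of these 6 windows and 46.8% of that of Thbs2. The median of all windows was 52.4%, and the part of base composition in the GC box matches was not tested. No searched motif overlapped another in the printed runs, and a missing match says only that these letters are not in these windows.

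None of the members was called between Ptch1cKO and WT. Of the 10 genes, 5 had enough counts for the test over all genes, and 0 of these 5 passed at an adjusted p under 0.05 (quasi-likelihood test of edgeR, Benjamini-Hochberg), beside 11 of 10954 genes tested, or 0.1%. At an unadjusted p under 0.05 there were also 0 of the 5, beside 9.34% of all genes, and DESeq2 called 0 as well. The groups overlapped in all 10 members, 5 of which lay below the count filter. Among all tested genes 5.02% did not overlap, and so few members cannot show a departure from that share. Fold changes were positive for 3 and negative for 2 of the 5, beside 49.7% positive over all genes.

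**Figure D2:**
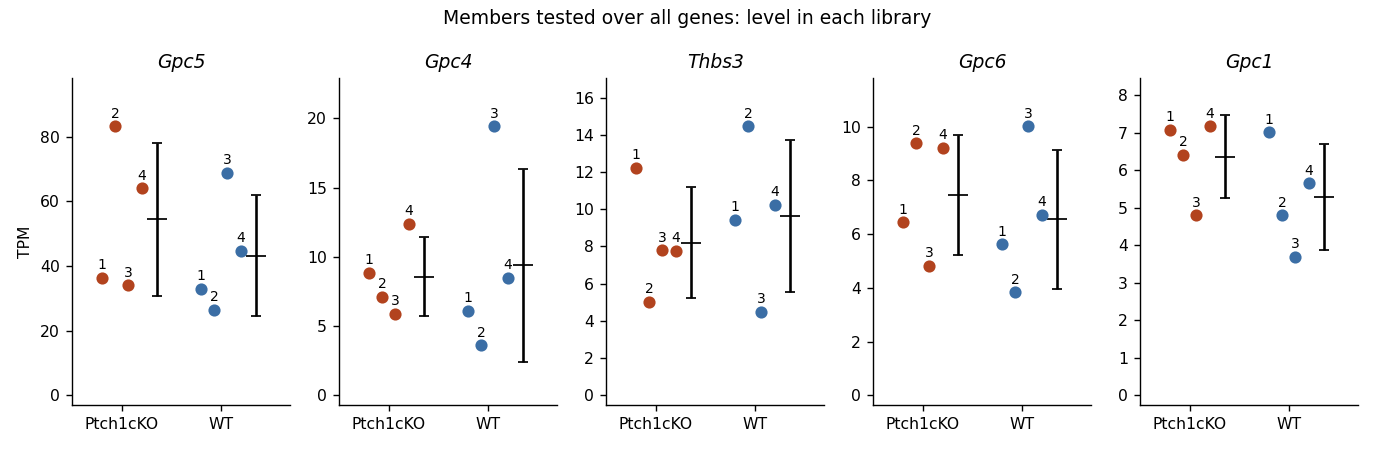
Points are the TPM of single libraries, numbered by replicate, for the 5 members tested over all genes, with Ptch1cKO left of WT, and black marks give the mean and SD of each group. The groups overlap in every panel, and Gpc5 reaches 83.2 TPM in Ptch1cKO library 2.

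Among the glypicans, the fitted log2 fold change of Gpc5 was 0.44 (SE 0.31, edgeR adjusted p = 0.722), which is a fold of 1.35 with a 95% interval from 0.852 to 2.15. Gpc6 lies next to it, at chr14:116925315-117976544 on the plus strand, 400135 bases away with no protein-coding gene between them. Gpc6 had 6.43, 9.38, 4.81 and 9.21 TPM in Ptch1cKO libraries 1 to 4, against 5.62, 3.83, 10.0 and 6.73 TPM in WT libraries 1 to 4. The highest and lowest values were both WT libraries, 3 and 2. The fitted fold was 1.23 (95% interval 0.799 to 1.88, edgeR adjusted p = 0.809). Gpc1, a glypican of neurons and many other cells (chr1:92831645-92860779, plus strand), had 7.09, 6.41, 4.80 and 7.18 TPM in Ptch1cKO libraries 1 to 4, against 7.02, 4.80, 3.69 and 5.65 TPM in WT libraries 1 to 4. It varied least of the 10 genes over the 8 libraries, by 1.95-fold from lowest to highest. The fitted fold of Gpc1 was 1.31, with an interval from 0.856 to 2.0 (edgeR, Benjamini-Hochberg adjusted p = 0.734). An exon of Gpc1 overlaps Ankmy1, and one of Gpc5 the transcript Gm20713, each on the opposite strand.

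Gpc4, which like Gpc6 is tied to AMPA receptor recruitment by astrocytes, lies on the X chromosome (chrX:52053021-52165252, minus strand). Gpc4 had 8.85, 7.13, 5.89 and 12.4 TPM in Ptch1cKO libraries 1 to 4, against 6.11, 3.61, 19.4 and 8.47 TPM in WT libraries 1 to 4. The lowest and the highest value both fell in WT libraries of the female pattern, 2 and 3, so these 2 stood on opposite sides of the other 6. With all libraries the log2 fold change was -0.03 (SE 0.43, edgeR adjusted p = 0.993), and the 95% interval of the fold ran from 0.516 to 1.86. Without WT library 3 the log2 fold change was 0.64, and among the 6 libraries of the male pattern it was 0.36, so its sign depended on which libraries entered. For Thbs3 the log2 fold change was -0.11 (SE 0.35, edgeR adjusted p = 0.966), with an interval of the fold from 0.556 to 1.55. Its sign also turned without WT library 2 or without Ptch1cKO library 2, to 0.16 and 0.08.

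Differences in the other 5 members rest on few counts. Thbs4, which in mice is also made by astrocytes of the subventricular zone (chr13:92751590-92794818, minus strand), had 11, 6, 5 and 98 counts in Ptch1cKO libraries 1 to 4, against 19, 85, 5 and 8 counts in WT libraries 1 to 4. A single library in each genotype, Ptch1cKO 4 and WT 2, thus held most of its reads. The pooled ratio of Ptch1cKO to WT was 1.09 (95% exact interval 0.837 to 1.42, counting error only), and the libraries did not differ by genotype beyond their spread (exact two-sided permutation test of CPM, p = 0.857). Without Ptch1cKO library 4 the difference in mean CPM, Ptch1cKO minus WT, was -3.44, against 0.282 with all libraries. These 2 libraries also had the highest oligodendrocyte marker sums of their groups, at 23008 CPM in Ptch1cKO 4 and 26541 CPM in WT 2, where the other 6 lay between 13710 and 21004 CPM. The part of these markers in the Thbs4 values was not tested.

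Gpc2, known as cerebroglycan and found on neurons that are still differentiating (chr5:138273655-138280005, minus strand), had 1, 5, 0 and 4 counts in Ptch1cKO libraries 1 to 4, against 21, 6, 14 and 3 counts in WT libraries 1 to 4. Pooled over libraries this was 10 counts against 44, a ratio of 0.241 (95% exact interval 0.108 to 0.487, counting error only). WT libraries 1, 2 and 3 were above all Ptch1cKO libraries, WT 2 by a single count, while WT 4 lay within their range. It did not pass in an exact permutation test (two-sided, p = 0.0857, where the smallest p that the 70 assignments allow is 0.0286). Without the count filter, edgeR gave Gpc2 a log2 fold change of -1.98 (SE 0.77; Benjamini-Hochberg adjusted p = 0.292). Summed neuronal markers were 4006 to 5181 CPM in Ptch1cKO and 4064 to 5582 CPM in WT. An exon of Gpc2 overlaps the same-strand gene Gm43720, so reads shared by both are uncertain.

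Gpc3, the glypican that lowers Hedgehog signalling in mouse embryos, had 1, 2, 1 and 5 counts in Ptch1cKO libraries 1 to 4, against 0, 8, 17 and 4 counts in WT libraries 1 to 4. It is X-linked (chrX:52272426-52613950, minus strand) and lies 107173 bases from Gpc4. Its 2 highest libraries, WT 2 and WT 3, were the 2 of the female pattern. The pooled ratio was 0.329 (95% exact interval 0.137 to 0.715, counting error only), without a difference between libraries that passed (exact two-sided permutation test, p = 0.257). Among the 6 libraries of the male pattern the mean difference was -0.0212 CPM, against -0.721 CPM with all 8. How sex and genotype share in the difference of Gpc3 was not tested beyond these values.

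Thbs1 and Thbs2, trimeric thrombospondins with strong anti-angiogenic activity, were both near the limit of detection. Thbs1 lies at chr2:118111876-118127133 on the plus strand and Thbs2 at chr17:14665500-14694235 on the minus strand, and an exon of Thbs1 overlaps the opposite-strand transcript Gm29233. Thbs1 had 8, 8, 5 and 5 counts in Ptch1cKO libraries 1 to 4, against 3, 21, 3 and 13 counts in WT libraries 1 to 4. The Ptch1cKO libraries were close to one another and fell inside the WT range. Thbs2 had 34, 4, 7 and 9 counts in Ptch1cKO libraries 1 to 4, against 18, 8, 5 and 1 counts in WT libraries 1 to 4, and without Ptch1cKO library 1 its mean difference was 0.00396 CPM, against 0.883 CPM with all libraries. Neither passed (exact two-sided permutation tests, p = 0.457 for Thbs1 and p = 0.514 for Thbs2). Vascular, mural and fibroblast markers, whose cells also make both genes, were scarce. Summed over 8 genes, endothelial markers were 4.78 to 16.0 CPM in Ptch1cKO and 4.69 to 18.7 CPM in WT, and mural markers 18.4 to 22.5 CPM and 17.2 to 38.4 CPM. Fibroblast markers summed to 15.2 to 42.0 CPM in Ptch1cKO and 7.80 to 22.2 CPM in WT, over 7 genes.

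**Figure D3:**
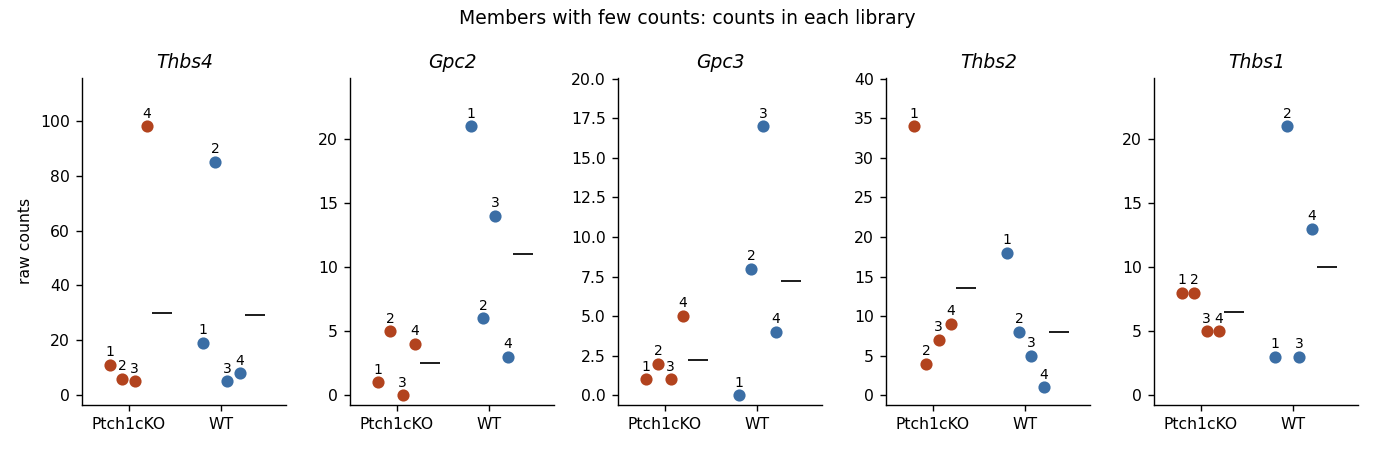
Points are raw counts of single libraries, numbered by replicate, for the 5 members below the count filter, with Ptch1cKO left of WT, and the black line is the mean count of the group. Thbs4 stands at 98 counts in Ptch1cKO library 4 and 85 in WT library 2, and at most 19 elsewhere.

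Gpc5 and Gpc6 varied together from library to library. Gpc5 TPM differed 2.44-fold between the highest and lowest Ptch1cKO library and 2.61-fold between those of WT, beside a fitted fold of 1.35 between the groups, and Gpc6 TPM differed 1.95-fold and 2.61-fold within the groups. After centring each gene on its mean over the 8 libraries, log2 CPM of Gpc6 differed from that of Gpc5 by 0.13 per library on average, and only 3 of 10953 genes lay closer to Gpc5. Among them were Syt12, a synaptotagmin, at 0.08, and Slc39a12, a zinc transporter, at 0.12. Gpc4 differed from Gpc6 by 0.26 and from Gpc5 by 0.33 on the same scale. The genes most like Gpc4 were Tmbim4 at 0.16, Gadd45gip1 at 0.20 and Aox1 at 0.21. These measures share the library and its scaling and carry no test.

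By sign, Thbs3 ran opposite to Gpc5, lying below its own mean log2 CPM over the 8 libraries wherever Gpc5 lay above and above it wherever Gpc5 lay below. In Ptch1cKO libraries 3 and 4, with 42 and 57 counts, Thbs3 lay close to its mean, at 0.05 and -0.08 on the centred log2 scale. It differed from Gpc5 by 0.90 per library on the centred log2 scale, and by that measure 10436 of 10953 genes were closer to Gpc5 than Thbs3 was. WT library 2, highest for Thbs3, was lowest for Gpc4, Gpc5 and Gpc6. Ptch1cKO library 2 and WT library 3, lowest for Thbs3, were the 2 libraries highest for Gpc5. The same 2 libraries had the highest astrocyte marker sums, 32180 CPM in Ptch1cKO 2 and 30314 CPM in WT 3, and the lowest microglial marker sums, 228 CPM in Ptch1cKO 2 and 194 CPM in WT 3. Elsewhere the microglial sum lay between 267 and 540 CPM. Within each group the order of libraries by Gpc5 TPM was that of the astrocyte sum, although by CPM Ptch1cKO libraries 1 and 3 changed places. That sum is mostly Slc1a2, a glutamate transporter, and Aldoc, a glycolytic enzyme, and single markers gave other orders. Aqp4 was highest in Ptch1cKO library 4, at 142 CPM, and lowest in WT library 4, at 80.2 CPM. The part of cell composition in these patterns was not tested.

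**Figure D4:**
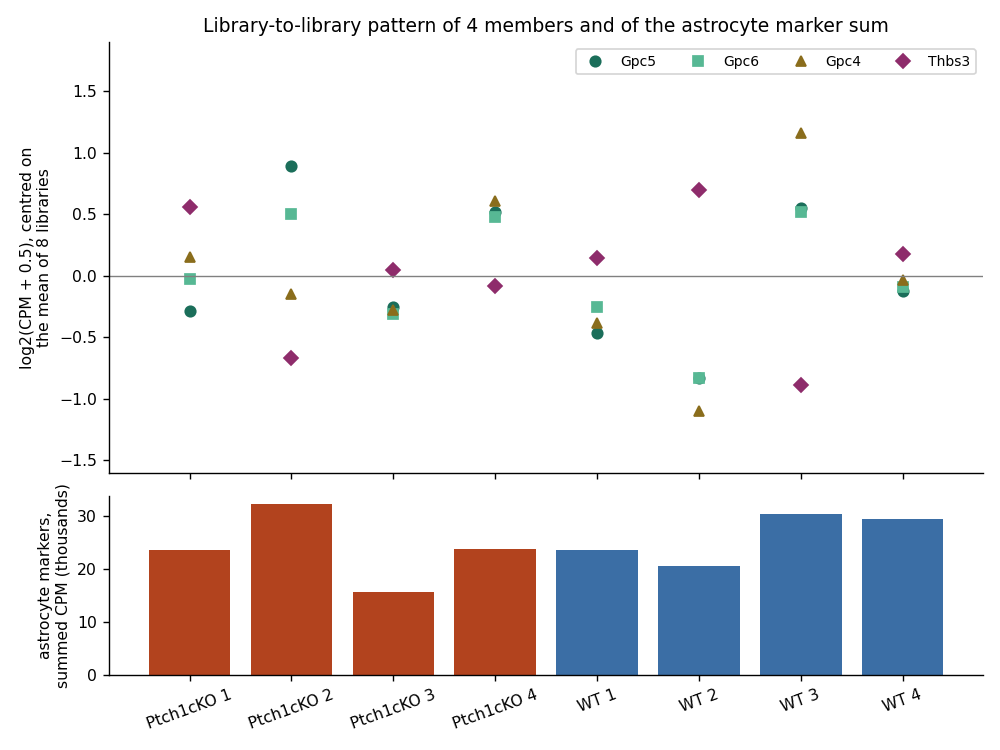
The upper panel gives log2(CPM + 0.5) of Gpc5, Gpc6, Gpc4 and Thbs3 in each library, centred on the mean of the 8 libraries, and the lower panel the summed CPM of 10 astrocyte markers, with Ptch1cKO left of WT. Gpc5 and Gpc6 lie close together in each library. Thbs3 lies on the other side of 0 from Gpc5 in all 8, though close to 0 in Ptch1cKO libraries 3 and 4.

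Receptors and partners of thrombospondins showed no call, with 0 of 16 tested genes passing, beside 0.1% of all genes. Their fold changes were positive for 10 and negative for 6, beside 49.7% positive over all genes. The median log2 fold change was 0.07, beside -0.0018 over all genes. Values of partners, here and below, are RNA levels in the sorted samples, and the cells they came from were not tested. Cacna2d1, the thrombospondin receptor in synapse formation, had 39.8, 48.8, 44.6 and 55.7 CPM in Ptch1cKO libraries 1 to 4, against 57.3, 60.1, 63.7 and 64.0 CPM in WT libraries 1 to 4. All Ptch1cKO libraries were below all WT libraries, as for 1 of the 16 genes against 5.02% of all tested genes, and it did not pass over all genes (log2 fold change -0.38, SE 0.16, edgeR adjusted p = 0.482). For Cd47, a membrane receptor for thrombospondins, the log2 fold change was 0.60 (SE 0.28), and for Lrp8, a reelin receptor that also binds Thbs1, it was -0.29 (SE 0.17), with adjusted p-values of 0.531 and 0.642 by edgeR.

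Of the 11 tested synaptic partners of glypicans, 1 passed, beside 0.1% of all genes. Fold changes were positive for 3 and negative for 8, beside 49.7% positive over all genes, with a median of -0.23 on the log2 scale. Since the list was chosen with earlier results of these data known, its share of calls cannot be read as an excess. The gene that passed was Gria1, the AMPA receptor subunit that astrocyte glypicans bring to the neuronal surface. Its RNA was measured here in the sorted samples, which does not measure the receptor on neurons. Gria1 had 578, 928, 450 and 907 CPM in Ptch1cKO libraries 1 to 4, against 241, 175, 304 and 254 CPM in WT libraries 1 to 4, and rose by 1.56 on the log2 scale (SE 0.23, edgeR adjusted p = 0.0283). Gria1 also passed by DESeq2 (adjusted p = 1.88e-07) and by edgeR without Ptch1cKO library 1, 2 or 3 (adjusted p = 0.0192, 0.0218 and 0.0028). Its edgeR adjusted p exceeded 0.05 when any single WT library or Ptch1cKO library 4 was left out, at 0.0551 to 0.113. The adjusted p was 0.190 by edgeR among the 6 libraries of the male pattern and 0.160 by limma on log2(TPM + 1). Without single libraries the log2 fold change stayed between 1.41 and 1.72. Gpr158, a postsynaptic receptor for Gpc4, had 19.7, 18.4, 15.2 and 18.9 CPM in Ptch1cKO libraries 1 to 4, against 24.8, 25.2, 30.6 and 22.2 CPM in WT libraries 1 to 4. These groups did not overlap either, as in 2 of the 11 genes against 5.02% of all tested genes, and the difference did not pass over all genes (log2 fold change -0.51, SE 0.20, edgeR adjusted p = 0.448). Ptprd and Ptprs, receptor tyrosine phosphatases that bind heparan sulfate, had log2 fold changes of -0.28 (SE 0.14) and -0.23 (SE 0.20), with adjusted p-values of 0.588 and 0.783 by edgeR.

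The enzymes that build and edit the heparan sulfate chains of glypicans gave 0 calls among 24 tested genes, beside 0.1% of all genes. Their fold changes were positive for 9 and negative for 15, beside 49.7% positive over all genes, with a median log2 fold change of -0.12. B3gat3, which completes the sugar linker to which the chain is attached, averaged 50.7 ± 10.2 CPM in Ptch1cKO and 33.1 ± 3.58 CPM in WT (SD, n = 4 each). Glce, the epimerase of the chain, averaged 39.6 ± 10.2 CPM in Ptch1cKO and 59.7 ± 8.09 CPM in WT. Hs6st1, a sulfotransferase of the chain, averaged 15.8 ± 2.20 CPM in Ptch1cKO and 8.72 ± 4.72 CPM in WT. Their edgeR adjusted p-values were 0.325, 0.357 and 0.449. In this list 3 of 24 genes did not overlap between groups, beside 5.02% of all tested genes.

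Among 5 tested heparan sulfate proteoglycans of other families, 0 passed by edgeR, beside 0.1% of all genes. Sdc3, a transmembrane syndecan of neural tissue, had 29.0, 24.9, 26.5 and 25.7 CPM in Ptch1cKO libraries 1 to 4, against 13.2, 15.0, 12.96 and 20.1 CPM in WT libraries 1 to 4. The groups did not overlap, as in 1 of the 5 genes against 5.02% of all tested genes. The log2 fold change was 0.80 (SE 0.21, edgeR adjusted p = 0.257), and DESeq2 called this gene (adjusted p = 0.0317). Sdc2 and Sdc4 had log2 fold changes of -0.44 (SE 0.24) and 0.17 (SE 0.18), with edgeR adjusted p-values of 0.616 and 0.837. For the TGF-beta pathway, which Thbs1 feeds by activating the latent ligand, 0 of 12 tested genes passed, beside 0.1% of all genes. Fold changes were positive for 8 of the 12, beside 49.7% over all genes, and the median was 0.35 on the log2 scale. Microglial markers, none of them called, had 8 of 8 positive fold changes, a median log2 fold change of 0.65 and sums of 228 to 540 CPM in Ptch1cKO and 194 to 415 CPM in WT. Their part in the values of this list was not tested. On the log2 scale Smad3, a transducer of the pathway, differed by 0.68 (SE 0.21), the receptor Tgfbr1 by 0.40 (SE 0.18) and the latent-ligand binder Ltbp4 by -0.81 (SE 0.44), with edgeR adjusted p-values of 0.328, 0.505 and 0.609.

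**Figure D5:**
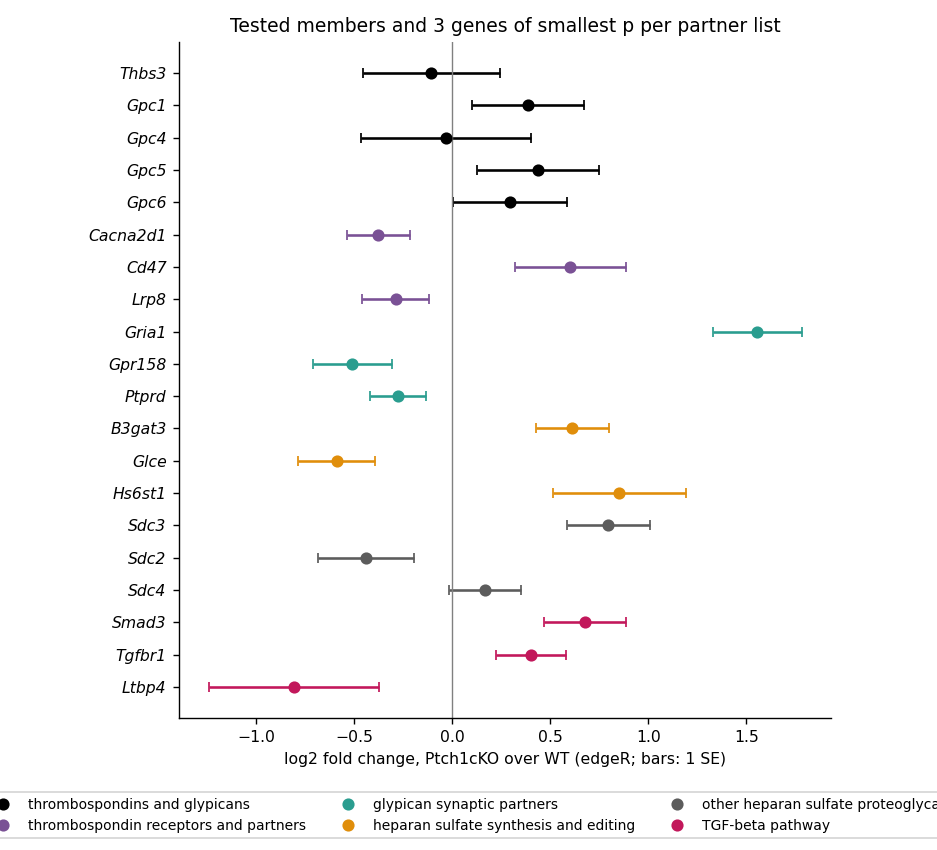
Points are log2 fold changes of Ptch1cKO over WT from edgeR with bars of 1 SE, for the 5 tested members and the 3 genes of smallest p in each partner list. Gria1, at 1.56, is the one gene shown that passed over all genes.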

How the data were processed

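Per the labels' protocols, cDNA from sorted tdTomato-positive cells was made with a low-input kit and enriched by Illumina TruSeq RNA exome capture. Per the submitters' processing notes, bcl2fastq 2.18 and STAR 2.5 were used with build mm10. No source used here names the counting program, the annotation or the strand setting. Deposited counts are raw whole reads for each gene symbol. The deposited TPM values were computed by the authors and sum to 1000000 in each library.

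Counts were tested with edgeR 4.0.16 in R 4.3.3 (filterByExpr by group, minimum count 10, TMM factors, robust quasi-likelihood F test, group as the only term, all 8 libraries), with Benjamini-Hochberg adjustment over 10954 genes and a threshold of 0.05. The SE is the log2 fold change divided by the square root of F, and intervals of a fold use the matching t quantile. The 5 members below the filter were compared by exact permutation of CPM. Pooled ratios and their intervals cover counting error only. Alternatives used DESeq2 1.42.0 and limma 3.58.1. No 2 libraries agreed within sampling noise (chi-square per degree of freedom at least 11.4). Positions of genes are those of GENCODE M21 for GRCm38 (the assembly of mm10), promoters from RefSeq on GRCm38.p6. Column prefixes group libraries within a genotype (WT 1 and 2, WT 3 and 4, Ptch1cKO 1 and 2), and Ptch1cKO 3 and 4 each have their own. The meaning of these prefixes is unknown here, and they cannot be told apart from genotype.

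The members and lists were chosen with earlier results of these data known. Named genes are all members, Ptch1, called partners or the 3 partners of smallest p per list, Cacna2d1, Ptprs, Gpr158, the 3 genes most like each of the 2 most abundant tested members, and needed markers. One gene that this rule names is not reported here.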

Additional observations from a re-analysis of the deposited data

Results flagged for a closer look

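Thbs4 in Ptch1cKO library 4, at 16.1 CPM, stood apart from the other 3 Ptch1cKO libraries, with a gap to the nearest of them that made up 0.966 of the whole range of the group (Dixon's critical value for 4 samples is 0.829). This was the 1 value marked in 20 groups of 4 libraries, and chance marks about 1 group in 20.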

How the results depend on the processing

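No member passed the test in any alternative among 85 refits of the 5 tested members, where adjusted p-values ran from 0.397 to 0.998, and Gpc1, Gpc5 and Gpc6 kept positive fold changes in all of theirs. The log2 fold change of Gpc4 turned positive in the refits with the replicate block (0.21), in the 6 libraries with under 10 Xist counts (0.36) and by limma on log2(TPM + 1) and log2(TPM + 0.1) (0.055 and 0.082). Leaving out single libraries gave log2 fold changes of -0.30 to 0.64 for Gpc4, -0.36 to 0.16 for Thbs3, 0.18 (without Ptch1cKO library 2) to 0.77 (without WT library 3, unadjusted p = 0.0199, edgeR adjusted p = 0.426) for Gpc5, 0.11 to 0.59 for Gpc6 and 0.24 to 0.57 for Gpc1. Differences in mean CPM ranged from -3.44 to 3.15 for Thbs4 and from -1.72 to -0.752 for Gpc2, which reached the smallest possible p (0.0286, exact permutation) without WT library 4. Thbs4 was also negative by limma, at -0.17 (log2). Over all genes, calls numbered 76 by DESeq2, 7 with library totals alone, 199 without a count filter, 5 with the replicate block, 3 in the libraries with under 10 Xist counts, 2 by limma, and 1 to 19 without single libraries, the most without Ptch1cKO library 2. Of the glypican partners, 0 were called with the replicate block, in the libraries with under 10 Xist counts or by limma, and 0 to 1 without single libraries. DESeq2 called 1 other proteoglycan (Sdc3), and edgeR without a filter 1 gene of the TGF-beta pathway (Smad3). With CPM in place of TPM, Gpc5 made up 60.8% of the glypican sum in Ptch1cKO and 56.6% in WT. Libraries of the same number in the sample titles did not deviate together (correlations of -0.171 to 0.0199), so the replicate block is not read as a pairing. The deposited column names number Ptch1cKO libraries 3 and 4 as 4 and 5. WT 4 and Ptch1cKO 3, which share a number there, gave a correlation of -0.094. The causes were not tested. The 5 members below the count filter entered the fit over all genes only under looser filters, all 5 without a filter and Thbs1, Thbs2 and Thbs4 at 1 CPM in 4 libraries, and none passed.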
